A study of Mus musculus with 4 samples.

Results

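Galectins are lectins that bind beta-galactoside sugars on glycoproteins. In the blood of MC-38 tumor-bearing mice, 5 genes of this group were followed: Lgals1 (galectin-1), Lgals3 (galectin-3), Lgals8 (galectin-8), Lgals9 (galectin-9) and Lgals3bp, a secreted glycoprotein that binds galectin-3. They were chosen by symbol, and all 5 were found among the 27998 genes of the count tables. Their levels were described in CD8 T cells, CD4 T cells, natural killer (NK) cells, B cells and monocytes of 4 libraries, and Lgals1 was set against Lgals3 within the same T cells.

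The blood came from female C57BL/6 mice, aged 6 to 8 weeks at the start per the study's methods, that had received MC-38 colon carcinoma cells under the skin, and was drawn 18 days later. All groups bore tumors. The untreated group received no immunotherapy. The anti-PD-L1 group received an antibody that blocks PD-L1, the ligand of the inhibitory T cell receptor PD-1, on days 10, 13 and 17. The anti-OX40/CpG group received an agonistic antibody to the costimulatory receptor OX40 with 25 µg of CpG, a TLR9 ligand, on day 7. The PDOX group received both regimens. Cells enriched for CD3+ T cells were profiled by droplet single-cell RNA sequencing of transcript 3′ ends, in which each captured transcript counts as 1 unique molecular identifier (UMI). Each group is 1 library, and the deposited record speaks of 4 mice, so mouse, library and treatment cannot be told apart and no difference between treatments was tested.

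Galectins act outside the cell by cross-linking glycans on surface receptors, and inside the cell in signaling and in the response to damaged membranes. Galectin-1 is induced when T cells are activated and is known for dampening T cell responses through CD45, CD43, CD7 and CD2. Galectin-3 is abundant in monocytes and macrophages, is also induced in activated T cells, and is known as a ligand of LAG-3 and CD45. Galectin-8 detects damaged endosomes, galectin-9 binds TIM-3, and Lgals3bp is a known interferon-induced gene. Which galectins circulating T cells carry under checkpoint therapy is therefore of interest both for their own state and for that of neighboring cells.

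Of 5434 deposited cells, 5299 with at least 200 detected genes were kept, 784 in the untreated library and 1446 to 1559 in each treated library. The libraries held 2392650 to 4969885 UMIs, and the median per kept cell lay between 1434.5 and 1618. Gates were set by markers that include no galectin: a Cd3 UMI with Cd8a or Cd8b1 and without Cd4 for CD8 T cells, a Cd3 UMI with Cd4 and without Cd8a or Cd8b1 for CD4 T cells, and at least 2 NK, 2 B or 3 monocyte markers without a Cd3 UMI for the other gates. They held 2072 CD8 T cells, 858 CD4 T cells, 66 NK cells, 131 B cells and 84 monocytes, and 2088 cells entered no gate. Mature B cell markers were at 0 in the NK gate. Between libraries, 14 cell barcodes were shared. A set of 23 cells stood apart, with at least 3 UMIs of Csta1, a median of 8120 UMIs, Lgals3 at 31.9 UMIs per 10000 and 1 Lgals1 UMI in all. No cell type is named for them, 4 lay in the CD8 T gate and 2 in the CD4 T gate, and Lgals3 results that rest on them are given with and without them.

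Per the RefSeq annotation of GRCm38.p6, the build of the files, Lgals1 lies at chr15:78926725-78930465, Lgals3 at chr14:47373860-47386167, Lgals8 at chr13:12439402-12464977, Lgals9 at chr11:78962979-78984924 and Lgals3bp at chr11:118392747-118401959. Over all deposited cells Lgals1 gave 17436 UMIs and Lgals3 4557, and 2333 and 790 of the kept cells carried them. Lgals9 gave 895 UMIs, Lgals3bp 568 and Lgals8 340. Lgals1 and Lgals3 therefore carry most of the account, and the other members were near the limit of this depth. Levels are given as UMIs per 10000 UMIs of the same cells, without genes of the mitochondrial genome, ribosomal proteins and hemoglobins, and intervals cover counting error only.

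Among whole gates, Lgals1 was highest in NK cells, lower in T cells and monocytes, and lowest in B cells. In NK cells the level was 45.6 UMIs per 10000 in the untreated library (14 cells), 77.4 with anti-PD-L1 (5 cells), 43.7 with anti-OX40/CpG (32 cells) and 65.0 with PDOX (15 cells). CD8 T cells held 6.52, 18.9, 15.4 and 28.8 in the same order, and CD4 T cells 6.08, 7.33, 22.9 and 39.5. Every NK value lay above every value of the whole CD8 T and CD4 T gates. In effector-type T cells, defined below, the level was 36.5 to 68.6 in CD8 T and 32.0 to 57.4 in CD4 T. These ranges overlapped the NK values and were not tested against them. Monocytes held 9.21, 10.5, 10.1 and 12.6 UMIs per 10000, a narrow range that overlapped the T cell values. B cells held 0.54, 1.57, 5.90 and 1.38, the third of these from 8 UMIs in 1 of 7 cells. With gates of the same library compared and the library as a block (edgeR quasi-likelihood test, Benjamini-Hochberg over all genes), Lgals1 was higher in NK than in T cells by 1.78 ± 0.23 (log2, SE, adjusted p = 3.12e-06, higher in 3 of 3 libraries) and lower in B than in T cells (log2 fold change -3.75 ± 0.35, adjusted p = 5.26e-09, 3 of 3 libraries). In monocytes it was lower than in T cells (log2 fold change -0.70 ± 0.24, adjusted p = 0.0196, 3 of 3 libraries), a call that was lost in DESeq2 (adjusted p = 0.143), without the library block (0.224), after thinning all cells to 750 UMIs (0.0624), without the PDOX library (0.0751) and without cells over 2900 genes (0.0528).

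**Figure D1:**
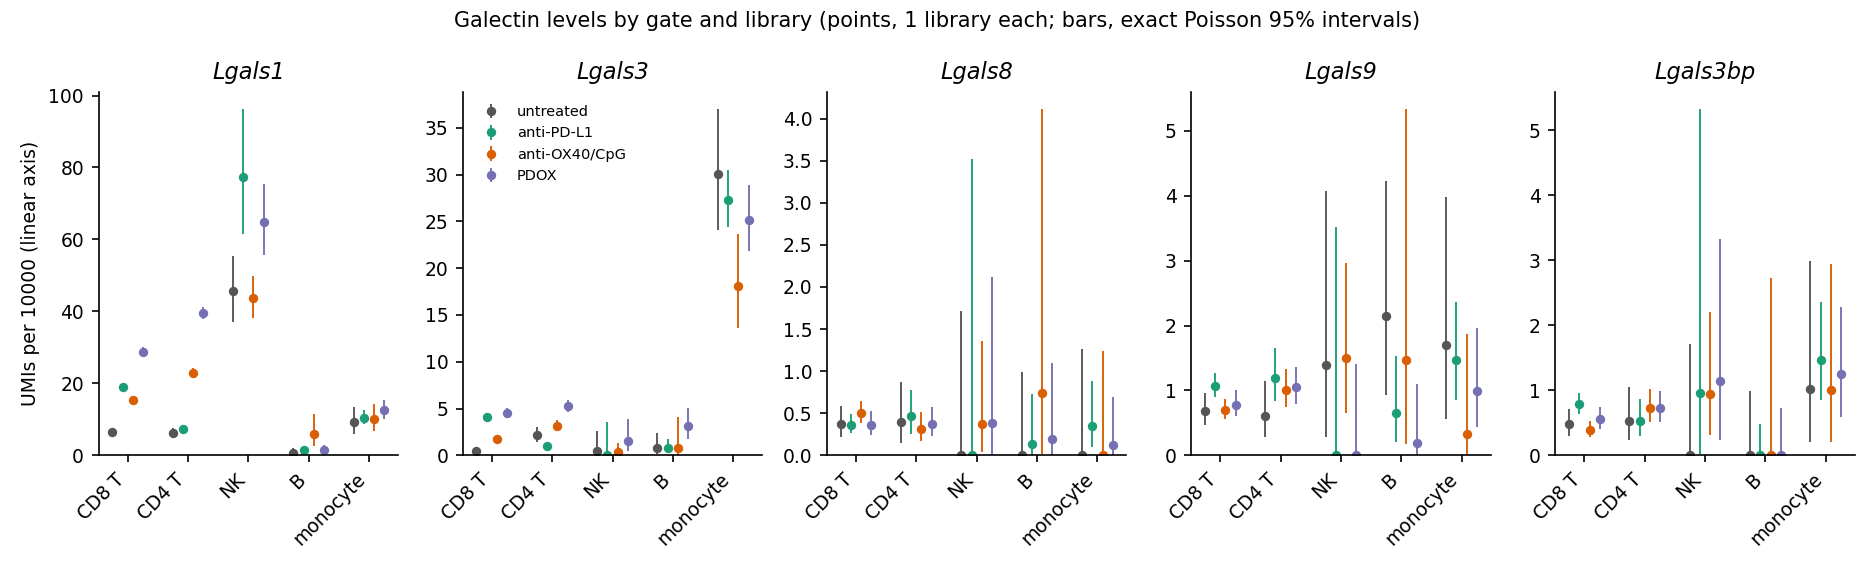
Level of the 5 genes (UMIs per 10000, linear axis, 1 panel per gene with its own scale) in 5 gates, with 1 point per library and exact Poisson 95% intervals. Lgals1 peaks in the NK gate, between 43.7 and 77.4, and Lgals3 in the monocyte gate, between 18.1 and 30.0, while Lgals8, Lgals9 and Lgals3bp stay near or under 2.

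Lgals3 followed another order, with monocytes on top and T cells well below. Monocytes held 30.0 UMIs per 10000 in the untreated library, 27.3 with anti-PD-L1, 18.1 with anti-OX40/CpG and 25.1 with PDOX. CD8 T cells held 0.48, 4.06, 1.76 and 4.56, and CD4 T cells 2.14, 0.996, 3.19 and 5.23. No T cell value reached the lowest monocyte value. NK cells, the gate richest in Lgals1, held 7 Lgals3 UMIs in 66 cells, at 0.46, 0, 0.38 and 1.52 per 10000. B cells held 0.80, 0.78, 0.74 and 3.15, and in the last of these 1 cell carried 13 of the 16 UMIs. Against T cells, Lgals3 was higher in monocytes by 2.96 ± 0.20 (log2, edgeR adjusted p = 5.62e-12, 3 of 3 libraries) and lower in NK cells (log2 fold change -1.78 ± 0.50, adjusted p = 0.013, 3 of 3 libraries). In the untreated library the NK value, 0.46 from 1 UMI, lay close to the 0.48 of CD8 T cells. Untreated CD4 T cells held 32 Lgals3 UMIs with the Csta1 cells and 5 without them, so the direction in that library largely rested on those cells. The NK call was lost in DESeq2 (adjusted p = 0.0678), without the library block (0.155), after thinning (0.363) and without the anti-OX40/CpG library (0.181). In B cells Lgals3 was lower in the fit over all cells (log2 fold change -0.95 ± 0.33, adjusted p = 0.0336), but not without the Csta1 cells (-0.67 ± 0.36, adjusted p = 0.184), nor without the anti-PD-L1 library (-0.35 ± 0.36, adjusted p = 0.529). Of all 2036 genes tested in this fit, 16.9% were called in NK cells, 28.2% in B cells and 45.5% in monocytes against T cells, so a call was common for any gene, and of the members Lgals1, Lgals3 and Lgals9 passed the filter on low counts.

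Lgals8, Lgals9 and Lgals3bp were low in every gate. In T cells Lgals8 ranged from 0.31 to 0.50 UMIs per 10000 over 4 libraries and both lineages, Lgals9 from 0.60 to 1.19 and Lgals3bp from 0.39 to 0.78. Lgals9 was not called in NK cells (log2 fold change 0.51 ± 0.63, adjusted p = 0.666), B cells (0.01 ± 0.56, 0.997) or monocytes (0.46 ± 0.46, 0.44) against T cells. Lgals3bp had 33 UMIs in 84 monocytes, 1.29 per 10000, and none in 131 B cells, where 0 UMIs allow a level of up to 0.168 per 10000 against 0.57 in CD8 T cells and 0.67 in CD4 T cells. In the 135 deposited barcodes under 200 genes, which entered no gate, Lgals1 had 3 UMIs, 2.35 per 10000, and Lgals3, Lgals9, Lgals8 and Lgals3bp had 0 or 1. Whether these UMIs came from free RNA or from small or damaged cells was not tested.

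The share of cells with at least 1 UMI was also highest with PDOX for Lgals1 in T cells, but the treated CD8 T libraries followed another order than by level. Among CD8 T cells, 33.9% carried Lgals1 in the untreated library, 38.0% with anti-PD-L1, 40.5% with anti-OX40/CpG and 60.5% with PDOX. Anti-PD-L1 thus lay below anti-OX40/CpG by share and above it by level. The order by level reversed without cells over 2900 genes, where the ratios to untreated were 2.30 with anti-PD-L1 and 2.36 with anti-OX40/CpG. It also reversed after thinning, at 2.097 and 2.31, and the intervals overlapped both times. Among CD4 T cells the shares were 35.4%, 38.9%, 54.0% and 69.1%. In B cells, which had the lowest level, 11.45% carried Lgals1 and 8.4% Lgals3, at a median of 1204 UMIs per cell against 1664 in CD8 T cells. With every cell thinned to 750 UMIs, 20.8%, 26.6%, 33.3% and 52.4% of CD8 T cells carried Lgals1, the same order of libraries as by share before thinning. For Lgals3, 2.24%, 9.86%, 9.23% and 25.2% of CD8 T cells and 4.04%, 6.74%, 11.3% and 28.6% of CD4 T cells had a UMI, so the untreated and anti-PD-L1 CD4 T shares and the untreated CD8 T share lay below the B cell share.

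Against the untreated library, Lgals1 in CD8 T cells was 2.90-fold higher with anti-PD-L1 (95% interval 2.58 to 3.27), 2.36-fold with anti-OX40/CpG (2.09 to 2.67) and 4.42-fold with PDOX (3.93 to 4.99). In CD4 T cells the ratio was 1.21 with anti-PD-L1 (0.94 to 1.56, an interval that includes 1), 3.77 with anti-OX40/CpG (3.04 to 4.72) and 6.49 with PDOX (5.26 to 8.09). Lgals1 was thus higher in every treated library in CD8 T cells, and in CD4 T cells in the libraries that had received anti-OX40/CpG. In CD8 T cells, 2.06% of the genes compared had a ratio of 2 or more with anti-PD-L1, 2.08% with anti-OX40/CpG and 3.5% with PDOX, and in CD4 T cells 1.04%, 4.7% and 7.02%. Of the members, Lgals1 and Lgals3 reached this ratio in CD8 T cells in all 3 treated libraries, and none of the other 3 did. In CD4 T cells Lgals1 reached it with anti-OX40/CpG and with PDOX, and Lgals3 with PDOX. All ratios share the 1 untreated library as their base, so they are not independent of each other.

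For Lgals3 the treatment ratios depended on few cells. In CD8 T cells the ratio to untreated was 8.52 with anti-PD-L1 (5.62 to 13.6), 3.696 with anti-OX40/CpG (2.40 to 5.96) and 9.58 with PDOX (6.28 to 15.3), from 23 UMIs in 7 untreated cells. Without the Csta1 cells these were 6.83, 3.696 and 8.11. In CD4 T cells 1 Csta1 cell held 27 of the 32 untreated Lgals3 UMIs. With it, the ratios were 0.47 (0.27 to 0.79), 1.49 (1.01 to 2.26) and 2.45 (1.69 to 3.65), and without the Csta1 cells 1.24 (0.41 to 4.43), 8.93 (3.74 to 27.9) and 14.65 (6.20 to 45.5). The direction with anti-PD-L1 and the size with the other regimens therefore turned on that cell. Lgals9 was 1.57-fold higher in CD8 T cells with anti-PD-L1 (1.07 to 2.38), and its other 5 intervals included 1. Lgals3bp was 1.65-fold higher in the same cells (1.04 to 2.72), and its other 5 intervals included 1 as well.

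Lgals1 was spread unevenly over the T cells of a library. In untreated CD8 T cells, 66.1% had no Lgals1 UMI and 1.92% had 10 or more, and with PDOX these shares were 39.5% and 19.0%. Among CD4 T cells the share with 10 or more was 1.01% without treatment, 2.59% with anti-PD-L1, 12.8% with anti-OX40/CpG and 31.2% with PDOX, values that were not tested. The anti-PD-L1 CD8 T cells were the most uneven, since the top 10% of cells held 86.0% of the Lgals1 UMIs, against 69.2% in untreated, 72.2% in anti-OX40/CpG and 50.1% in PDOX CD8 T cells.

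**Figure D2:**
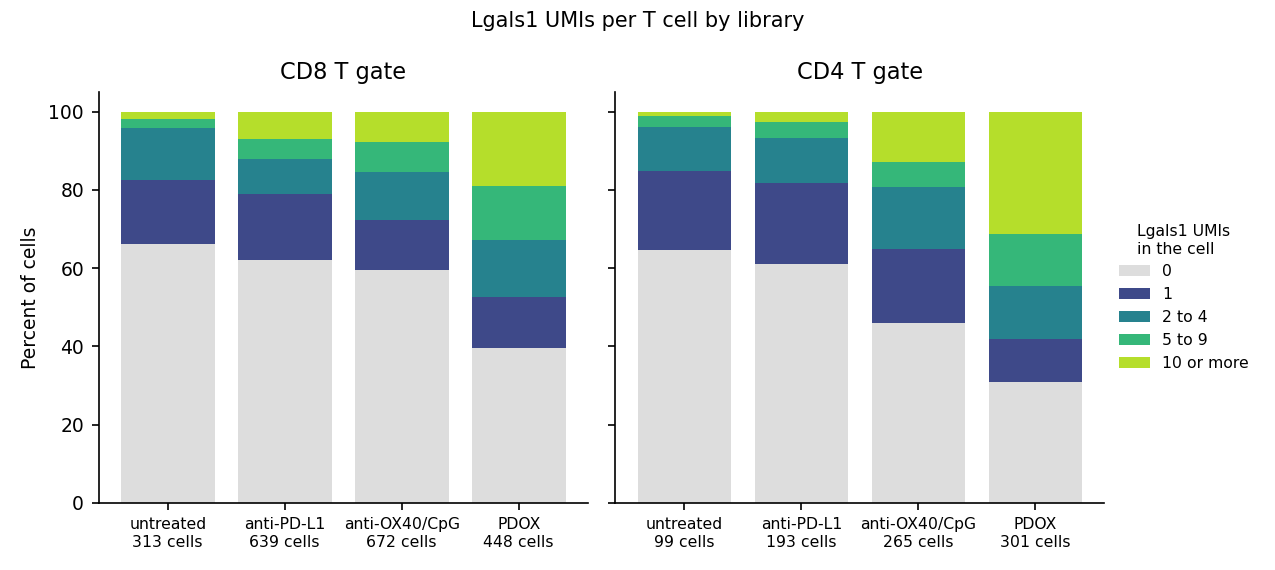
Percent of CD8 T cells (left) and CD4 T cells (right) of each library by the number of Lgals1 UMIs in the cell, in stacked bars that add up to all cells of the gate. The class with 10 or more UMIs covers 1.92% of untreated and 19.0% of PDOX CD8 T cells, and 1.01% and 31.2% of CD4 T cells.

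To see which T cells carried the galectins, cells were divided by markers that hold no galectin: naive-type cells had at least 2 genes of a list of naive markers that includes Ccr7, Lef1, Dapl1, Igfbp4 and Satb1, and no effector marker, and effector-type cells had at least 2 of Ccl5, Nkg7, S100a4, Cxcr3, Itgb1 and Il2rb and more of these than naive markers. Lgals1 was low in naive-type CD8 T cells, at 2.16 UMIs per 10000 in the untreated library, 2.36 with anti-PD-L1, 2.76 with anti-OX40/CpG and 0.56 with PDOX. In effector-type CD8 T cells it was 40.3, 68.6, 36.5 and 46.5. The groups did not overlap, and the intervals of the untreated and PDOX effector-type cells overlapped (34.2 to 47.2 and 44.5 to 48.5). Naive-type CD4 T cells held 5.02, 4.05, 3.63 and 2.89, and effector-type CD4 T cells 32.0 (6 cells), 34.3 (11 cells), 49.8 and 57.4. Effector-type cells exceeded naive-type cells by 4.61 ± 0.18 in CD8 T (log2, edgeR adjusted p = 2.44e-38, 4 of 4 libraries) and by 3.68 ± 0.14 in CD4 T (adjusted p = 3.03e-57, 3 of 3 libraries with at least 10 cells in both).

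Lgals3 was nearly absent from naive-type T cells. Naive-type CD8 T cells held 2 Lgals3 UMIs in 258 cells and naive-type CD4 T cells 3 UMIs in 346 cells, none of them Csta1 cells. Effector-type CD8 T cells held 5.20 UMIs per 10000 in the untreated library (18 cells), 12.3 with anti-PD-L1, 4.49 with anti-OX40/CpG and 6.21 with PDOX, and effector-type CD4 T cells 3.20, 1.88, 7.98 and 7.63. The difference was called in CD8 T (log2 fold change 7.06 ± 0.41, adjusted p = 6.66e-27, 4 of 4 libraries) and in CD4 T (6.09 ± 0.43, adjusted p = 9.73e-28, 3 of 3 libraries), where the size of the fitted fold rests on the few naive-type UMIs. Effector-type cells held 87.0%, 62.75%, 81.1% and 78.2% of the Lgals3 UMIs of the CD8 T gate, from untreated to PDOX, and 9.38%, 13.3%, 97.4% and 91.4% in the CD4 T gate, and most of the rest lay in T cells of neither type. These shares include the Csta1 cells, none of which was effector-type. Without them the CD4 T gate held 5 Lgals3 UMIs in the untreated library and 13 with anti-PD-L1, of which effector-type cells held 3 and 4. The CD8 T gate then held 394 with anti-PD-L1 and 301 with PDOX, of which effector-type cells held 315 and 283. Over all genes 26.1% were called in the CD8 T comparison and 16.3% in the CD4 T comparison, and the members called were 2 of the 3 that passed the filter in CD8 T and 3 of 4 in CD4 T. The third in CD4 T was Lgals9, lower in effector-type cells (log2 fold change -0.95 ± 0.35, adjusted p = 0.0464, lower in 2 of 3 libraries), with levels of 0.47, 0.59 and 0.95 UMIs per 10000 against 1.52, 2.04 and 0.89 with anti-PD-L1, anti-OX40/CpG and the combination. This call was lost in DESeq2 (0.576), without the anti-OX40/CpG library (0.893) and under 6 other settings. In CD8 T cells Lgals9 was not called (-0.12 ± 0.32, adjusted p = 0.83), nor was Lgals3bp in CD4 T cells (0.73 ± 0.46, adjusted p = 0.317).

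**Figure D3:**
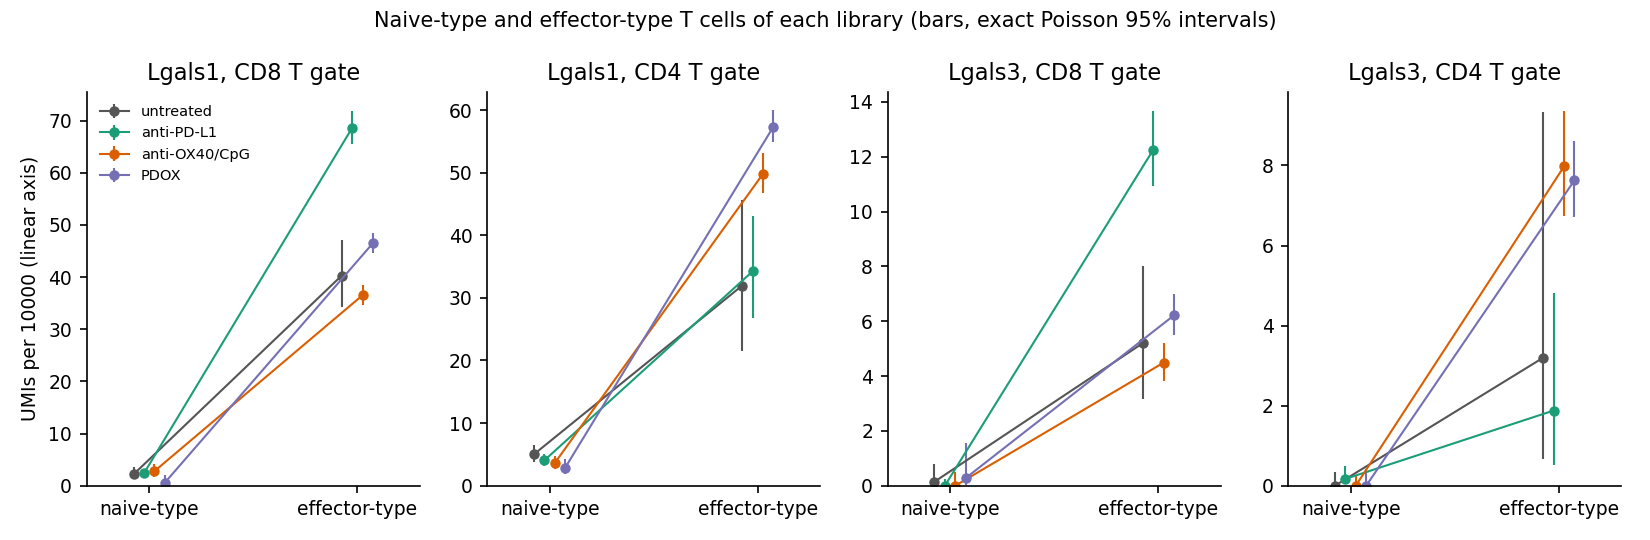
Lgals1 and Lgals3 (UMIs per 10000, linear axis) in naive-type and effector-type cells of the CD8 T and CD4 T gates, with 1 line per library and exact Poisson 95% intervals. Every library is higher in effector-type than in naive-type cells in each panel, for Lgals1 in CD8 T cells with at most 2.76 against at least 36.5.

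The effector-type share of the T cells also differed between libraries, in an order that was not fully that of the Lgals1 level of the whole gate. It was 5.75%, 13.5%, 27.7% and 53.1% of CD8 T cells and 6.06%, 5.70%, 29.1% and 55.1% of CD4 T cells, listed from untreated to PDOX as above. Anti-PD-L1 CD8 T cells had a lower share but a higher Lgals1 level than anti-OX40/CpG CD8 T cells, and anti-PD-L1 CD4 T cells a slightly lower share and a higher level than untreated ones. Both of these orders by level reversed after thinning, and the CD8 T order also reversed without cells over 2900 genes. Effector-type cells held 49.2% of the Lgals1 UMIs of untreated CD8 T cells and 92.5% of those of PDOX CD8 T cells, and 32.97% and 91.2% in CD4 T cells. Within effector-type CD8 T cells the order of libraries was another, with anti-PD-L1 highest at 68.6 (95% interval 65.4 to 71.9) and anti-OX40/CpG lowest at 36.5 (34.6 to 38.5), although the anti-PD-L1 cells were also the deepest, at a median of 2766 UMIs against 1761 to 2024. In effector-type CD4 T cells PDOX was highest, at 57.4 (54.8 to 60.0), and the untreated and anti-PD-L1 levels had overlapping intervals.

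Between CD8 T and CD4 T cells as a whole no member was called (0 of 5 by edgeR or by DESeq2, 0 at an unadjusted p under 0.05 in edgeR), where 4.85% of all genes were. The log2 fold change of CD8 T over CD4 T was 0.12 ± 0.23 for Lgals1 and -0.06 ± 0.36 for Lgals3, with the libraries pointing both ways. The Lgals1 level of CD8 T cells was above that of CD4 T cells with anti-PD-L1 and below it with anti-OX40/CpG and PDOX, and without treatment the levels, 6.52 and 6.08 UMIs per 10000, lay close together. For Lgals8 the value was 0.15 ± 0.24, for Lgals9 -0.25 ± 0.15 and for Lgals3bp -0.21 ± 0.23.

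Among CD4 T cells, 29 carried a UMI of Foxp3, the transcription factor of regulatory T cells, and no effector marker was required of them. They held Lgals1 at 35.5 UMIs per 10000 (95% interval 31.2 to 40.3) over all libraries, and Foxp3- effector-type CD4 T cells at 55.2 (53.1 to 57.3). Lgals3 was at 2.92 (1.79 to 4.52) in Foxp3+ cells, with 18 of the 20 UMIs in 9 anti-OX40/CpG cells and 13 of these in 1 cell, and at 7.89 (7.13 to 8.72) in Foxp3- effector-type cells. The libraries weigh differently in the pooled values, and for Lgals1 they did not all point one way, with 38.0 in Foxp3+ and 17.5 in Foxp3- effector-type cells without treatment, 33.2 and 33.7 with anti-PD-L1, 43.75 and 50.4 with anti-OX40/CpG, and 27.35 and 59.5 with PDOX. With 2 to 15 Foxp3+ cells per library these values were not tested.

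The cells that carried Lgals3 were largely among those that carried Lgals1. Of CD8 T cells with an Lgals1 UMI, 3.77% also had Lgals3 in the untreated library, 21.4% with anti-PD-L1, 21.3% with anti-OX40/CpG and 38.4% with PDOX. Of CD8 T cells without an Lgals1 UMI, 1.45%, 2.78%, 1% and 5.08% had Lgals3. For CD4 T cells the shares were 2.86%, 6.67%, 20.3% and 41.3% with Lgals1, and 4.69%, 6.78%, 0.82% and 0% without it. The separation was thus clear in every treated library for CD8 T cells and in the anti-OX40/CpG and PDOX libraries for CD4 T cells, while untreated cells of either lineage and anti-PD-L1 CD4 T cells had overlapping intervals. Among effector-type cells, 192 of 193 CD8 T cells and 112 of 112 CD4 T cells with Lgals3 also had Lgals1, which 440 of all 528 effector-type CD8 T cells and 245 of all 260 effector-type CD4 T cells carried. After thinning it was 117 of 123 and 70 of 76, and 17.1% of effector-type CD4 T cells without Lgals1 then had Lgals3 (95% interval 6.56 to 33.65) against 32.4% of those with it (26.2 to 39.1). The reverse did not hold, since 248 effector-type CD8 T cells and 133 effector-type CD4 T cells had Lgals1 without Lgals3. Cells with Lgals1 were deeper, at a median of 1880 UMIs against 1522 in CD8 T and 1850 against 1369 in CD4 T. With all cells thinned to 750 UMIs, 20.2% of CD8 T cells with Lgals1 and 1.57% of those without it had Lgals3 over all libraries, against 24.4% and 2.29% before thinning.

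**Figure D4:**
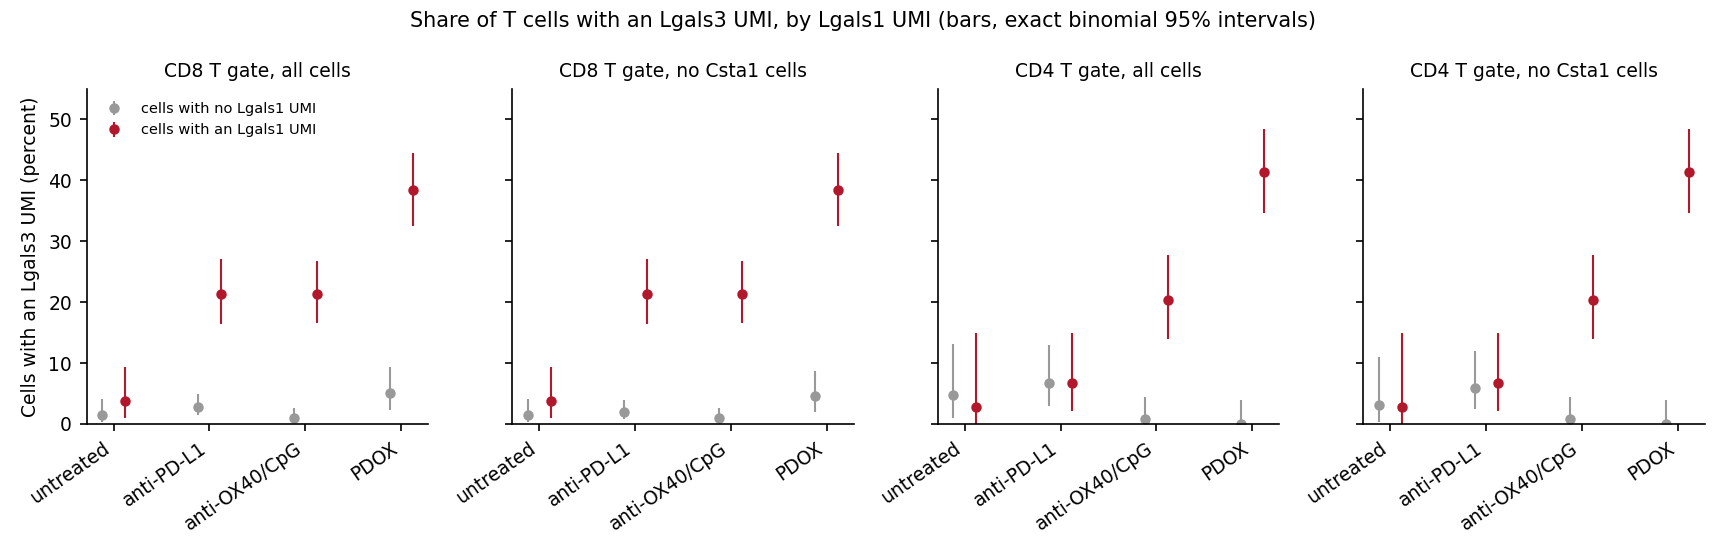
Percent of T cells with an Lgals3 UMI among cells with and without an Lgals1 UMI, by library, for CD8 T and CD4 T cells and for all cells and without the Csta1 cells, with exact binomial 95% intervals. In CD8 T cells of the PDOX library the shares are 38.4% and 5.08%, and in untreated cells the intervals overlap.

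In a fit of Lgals1+ against Lgals1- cells of the same library, Lgals3 was higher in Lgals1+ CD8 T cells (log2 fold change 2.104 ± 0.28, adjusted p = 8.28e-06, 4 of 4 libraries), and 9.15% of all genes were called. DESeq2 (adjusted p = 0.0502) and the fit without the library block (0.123) did not call it. Without the Csta1 cells, all 4 of which were Lgals1-, it was 4.93 ± 0.21 (adjusted p = 1.89e-18). These cells were set apart after seeing the data and were rich in Lgals3, so their removal could only raise the Lgals3 difference. The larger value is therefore not separate support for it. The Lgals3 difference was not called in CD4 T cells (1.73 ± 0.68, adjusted p = 0.163, higher in 2 and lower in 2 libraries), where 4.02% of all genes were, and without the Csta1 cells Lgals3 no longer passed the filter on low counts. Lgals8, Lgals9 and Lgals3bp were not called in CD8 T cells, at -0.11 ± 0.24, 0.28 ± 0.18 and 0.38 ± 0.22, nor was Lgals9 in CD4 T cells (-0.44 ± 0.28). Seen the other way, among effector-type cells, Lgals1 was higher in Lgals3+ than in Lgals3- CD8 T cells by 1.35 ± 0.13 (adjusted p = 1.90e-07, 3 of 3 libraries, 3.08% of all genes called) and in CD4 T cells by 0.78 ± 0.15 (adjusted p = 8.53e-05, 2 of 2 libraries, 1.29% of all genes called). DESeq2 (0.999), the fit without the library block (0.959), the removal of cells over 2900 genes (0.0716) and a gate with 3 effector markers (0.138) did not call the CD4 T difference. The summed monocyte markers were at 3.03 UMIs per 10000 in Lgals3+ and 4.30 in Lgals3- CD8 T cells, and at 2.93 and 5.37 in CD4 T cells. These values are limited by the gates, which leave out T cells with at least 3 monocyte markers but not those with neutrophil markers. The summed neutrophil markers were at 1.03 in Lgals3+ and 0.20 in Lgals3- CD8 T cells, and at 0.617 (0 to 10.4 over libraries) and 0.492 (0 to 1.26) in CD4 T cells. Within effector-type cells they were at 0.175 and 0.247 in CD8 T and at 0.11 and 1.40 in CD4 T.

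The 5 largest increases in Lgals1+ over Lgals1- CD8 T cells were in 2810417H13Rik, a gene of DNA replication (log2 fold change 6.65 ± 0.50), the calcium-binding protein gene S100a4 (5.39 ± 0.17), the granzyme genes Gzma (5.32 ± 0.22) and Gzmb (5.25 ± 0.20), and Ube2c, a ubiquitin-conjugating enzyme of mitosis (4.83 ± 0.38), each higher in 4 of 4 libraries with edgeR adjusted p of at most 1.70e-09. Without the Csta1 cells Lgals3 (4.93 ± 0.21) stood in place of Ube2c among these 5. The 5 largest decreases, Plet1, Slc6a19, Insig1, Muc4 and Ctsl, lay between -3.68 and -1.65, and without the Csta1 cells only Slc6a19 (-2.36 ± 0.53) was still among the 5 largest, beside Dopey1, Rrad, Thra and Inadl. In Lgals1+ CD4 T cells the largest increases were in S100a4 (4.34 ± 0.35), the cytotoxic granule gene Nkg7 (4.01 ± 0.28), the chemokine gene Ccl5 (3.87 ± 0.18), the chemokine receptor gene Cxcr3 (3.43 ± 0.35) and Ikzf2, which encodes Helios (2.27 ± 0.34), in whose place S100a6 (4.34 ± 0.20) stood without the Csta1 cells. Ikzf2 was the 1 of 4 listed markers of regulatory T cells that could be tested there, and the summed level of that list was 3.92 UMIs per 10000 in Lgals1+ (2.41 to 4.92 over libraries) and 0.738 in Lgals1- CD4 T cells (0.228 to 1.59), whose part in the differences was not tested. The largest decreases were in the sialyltransferase gene St8sia6 (-2.20 ± 0.41), Atp1b1, Pdk1, Itm2a and Kif1b. S100a4, Nkg7, Ccl5 and Cxcr3 are also effector markers of the gates used above. In CD4 T cells 108 genes were called, with 8 left without the anti-OX40/CpG library and 44 without the PDOX library. Of the NK markers, Tyrobp alone could be tested in CD8 T cells and was higher in Lgals1+ cells (2.16 ± 0.42, adjusted p = 0.00101, 3 of 4 libraries), and its part in these differences was not tested.

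Within effector-type cells, those with Lgals3 were set against those without it. In CD8 T cells the interferon-induced membrane protein genes Ifitm1 (5.41 ± 0.31, adjusted p = 6.32e-12) and Ifitm2 (4.43 ± 0.43, adjusted p = 1.90e-07) rose most, followed by AA467197 (3.08 ± 0.47), 2810417H13Rik (1.74 ± 0.38) and the actin-capping protein gene Capg (1.60 ± 0.27). The survival gene Bcl2 fell most (-1.94 ± 0.19, adjusted p = 1.90e-07), followed by Rgs10, Itm2a, Pik3ip1 and Ppp1r14b, between -1.79 and -1.66. Ifitm1 also led in CD4 T cells (2.77 ± 0.22, adjusted p = 7.97e-32), with the interferon-gamma gene Ifng (2.41 ± 0.62), 1500009L16Rik (2.38 ± 0.63), the NKG2A gene Klrc1 (2.35 ± 0.55) and Anxa1 (2.05 ± 0.51). Ccr7 (-2.14 ± 0.51) and Tcf7 (-1.42 ± 0.32), genes of naive and memory T cells, fell there, as did Izumo1r (-2.07 ± 0.41), Ccl5 (-0.66 ± 0.14) and Junb (-0.66 ± 0.19). Ccr7 and Ccl5 are also markers of the gate within which this fit was run. The summed markers of regulatory T cells were at 3.77 UMIs per 10000 in Lgals3+ and 6.93 in Lgals3- effector-type CD4 T cells, whose part in the differences was not tested. Of the 8 interferon-response genes listed below, 3 could be tested in CD8 T cells and 2 in CD4 T cells. None was called, at median log2 fold changes of -0.63 and -0.25, where 3.08% and 1.29% of all genes were. The CD4 T fit rests on 2 libraries, with 31 genes called by edgeR and 1 by DESeq2. The CD8 T comparison called 96 genes, against 10 when anti-OX40/CpG cells were left out, 57 when those of anti-PD-L1 were, and 157 when those of PDOX were.

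Known glycoprotein partners of galectins moved with effector type. Of 18 listed counter-receptors, 12 could be tested in CD8 T cells, and 7 were higher in effector-type cells and none lower, where 26.1% of all genes were called in either direction, at a median log2 fold change of 0.49 against 0.01 over all genes. They were Cd44, the hyaluronan receptor (3.01 ± 0.52), Cd7 (2.02 ± 0.22), the LFA-1 chain gene Itgal (1.41 ± 0.26), Spn, which encodes the mucin CD43 (1.22 ± 0.24), the VLA-4 chain gene Itga4 (0.89 ± 0.22), the adhesion receptor gene Cd2 (0.57 ± 0.16) and Thy1 (0.41 ± 0.14). In CD4 T cells, where 16.3% of all genes were called, the 7 called higher of 12 had the same names, Cd44 (2.08 ± 0.43), Cd7 (1.49 ± 0.30), Itga4 (1.25 ± 0.25), Itgal (0.79 ± 0.29), Spn (0.78 ± 0.25), Cd2 (0.43 ± 0.16) and Thy1 (0.42 ± 0.15), while Lamp1, a lysosomal glycoprotein, was lower (-0.93 ± 0.31, adjusted p = 0.0237). In Lgals1+ CD8 T cells, where 9.15% of all genes were called, 6 of 14 were higher, the costimulatory receptor gene Tnfrsf9 (2.40 ± 0.46), Cd44 (1.32 ± 0.22), Cd7 (0.97 ± 0.12), Spn (0.87 ± 0.13), Itgal (0.77 ± 0.13) and Cd2 (0.40 ± 0.10), and the count was also 6 without the Csta1 cells. In Lgals1+ CD4 T cells, at 4.02% of all genes, 1 of 11 was called, Cd7 (1.10 ± 0.27, adjusted p = 0.0216). In Lgals3+ effector-type CD8 T cells, at 3.08% of all genes, it was 1 of 13, Lag3, the gene of a galectin-3 receptor (1.13 ± 0.28, adjusted p = 0.0219). In Lgals3+ effector-type CD4 T cells, at 1.29% of all genes, none of 13 was called, at a median log2 fold change of -0.12.

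Few of the enzymes that build or cap galectin-binding glycans could be tested. Of 16 listed, 3 passed the filter in the effector-type against naive-type CD8 T comparison, and St3gal6, a sialyltransferase (1.75 ± 0.36, adjusted p = 5.05e-05, 4 of 4 libraries), and B4galt1, which adds the galactose of N-acetyllactosamine (0.76 ± 0.30, adjusted p = 0.0474, 3 of 4 libraries), were higher, where 26.1% of all genes were called. Of the 2 that passed in CD4 T cells, where 16.3% of all genes were called, 1 was higher. This was Mgat2, which branches N-glycans (1.299 ± 0.35, adjusted p = 0.00306, 3 of 3 libraries). In Lgals1+ CD8 T cells St3gal6 was the 1 enzyme of 12 that was called (1.01 ± 0.16, adjusted p = 0.000152, 4 of 4 libraries), a share near the 9.15% of all genes. None was called of 2 tested in Lgals1+ CD4 T cells, at 4.02% of all genes. The same held for 4 tested in Lgals3+ effector-type CD8 T cells (3.08%) and 3 in Lgals3+ effector-type CD4 T cells (1.29%).

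Lgals3bp and Lgals3 were the members called with interferon-response genes, both with calls or sizes that depended on the setting. T cells with at least 3 of Isg15, Ifit1, Ifit3, Rtp4, Irf7, Usp18, Ifi44 and Oasl2 numbered 146, of which 97 came from the anti-PD-L1 library. In these cells Lgals3bp was at 1.39 UMIs per 10000 in the untreated library, 1.18 with anti-PD-L1, 1.69 with anti-OX40/CpG and 1.21 with PDOX, and in the other T cells at 0.45, 0.64, 0.47 and 0.59. The ranges did not overlap, although 3 of the 4 untreated UMIs came from 1 cell. The difference was 1.22 ± 0.32 (log2, edgeR adjusted p = 0.00647, higher in 4 of 4 libraries), where 2.48% of all genes were called, and 1.26 ± 0.30 without the Csta1 cells (0.00484). It was not called after thinning (0.918), without cells of high Scrublet scores (0.117), without the anti-PD-L1 library (0.276) or without the PDOX library (0.0972). Lgals9 (0.70 ± 0.29, adjusted p = 0.308), Lgals8 (0.45 ± 0.44, 0.913) and Lgals1 (0.20 ± 0.19, 0.905) were not called. Lgals3 was (2.15 ± 0.20, adjusted p = 1.71e-22, higher in 3 of 4 libraries), with 5 Csta1 cells among the 146. Without them it was 0.92 ± 0.19 (adjusted p = 0.000147, higher in 2 of 4 libraries), and S100a8, a neutrophil marker that was higher by 3.85 ± 0.49 with them, was no longer tested. The levels with and without them were 10.4 and 1.57 in untreated interferon-type cells, and 10.1 and 6.44 with anti-PD-L1.

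Because Lgals3bp was called with the interferon genes and Lgals9 is also known to respond to interferon, their promoters are shown, as RefSeq bases just before the gene start on GRCm38.p6, 5′ to 3′ on the minus strand that carries both genes. Capitals mark a match to the core of an interferon-stimulated response element, searched as GAAA, any 2 bases and GAAA, or on the other strand TTTC, any 2 bases and TTTC, with no other motif searched.
Lgals9, chr11:78984925-78985024: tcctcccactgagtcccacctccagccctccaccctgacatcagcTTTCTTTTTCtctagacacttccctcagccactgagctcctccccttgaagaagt
Lgals3bp, chr11:118401960-118402059: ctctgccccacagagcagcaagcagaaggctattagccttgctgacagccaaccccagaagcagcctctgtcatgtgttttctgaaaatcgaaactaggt
In the window from 250 bases before to 50 after the start, Lgals9 had 2 matches, at -55 to -46 and at 16 to 25, and Lgals3bp, Lgals3 and Lgals8 had 0. Only exact matches were counted, so a value of 0 does not exclude a similar element. The promoter set held no entry for Lgals1. Over all 32851 promoters, 1131 (3.44%) held a match. These are descriptions of the letters in the window.

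**Figure D5:**
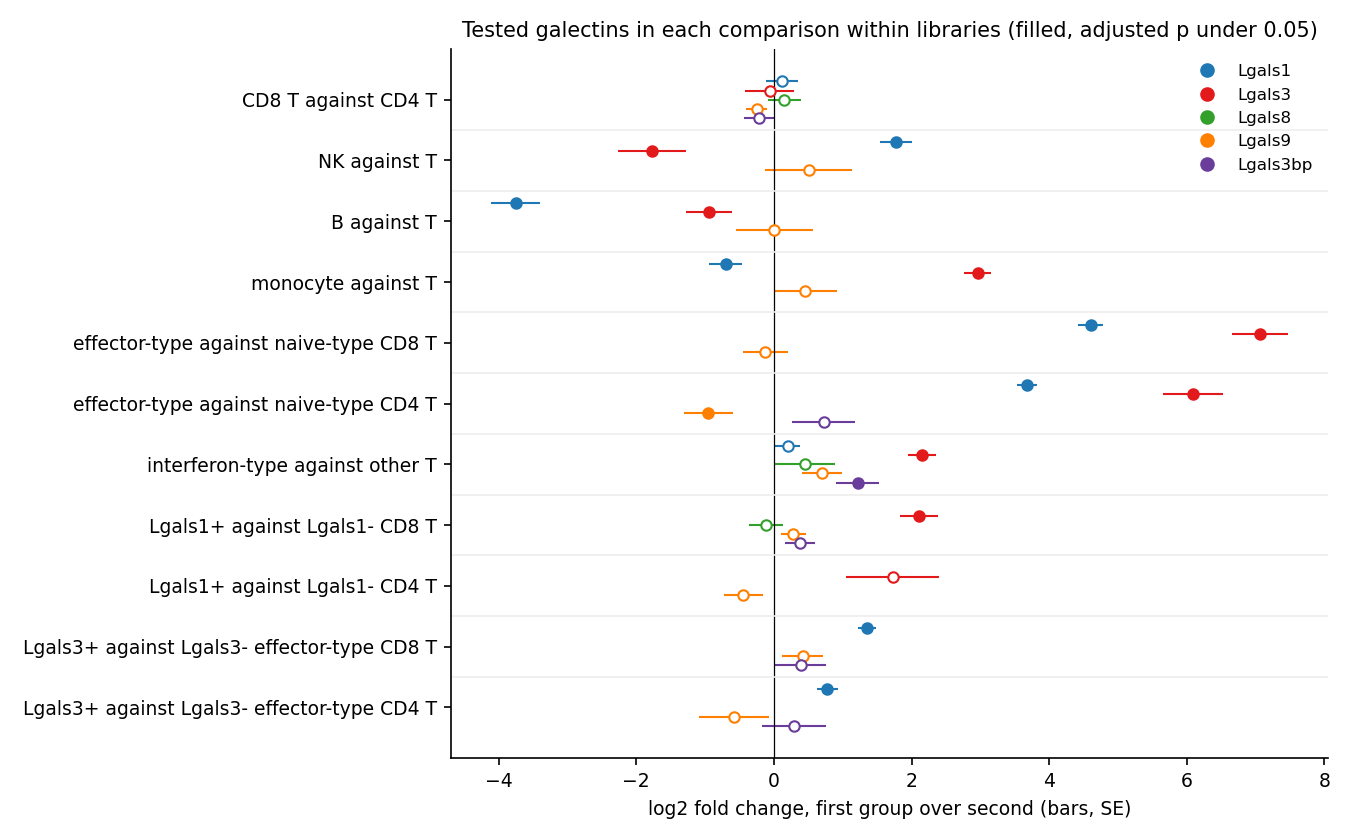
Log2 fold change of each tested member in each comparison within libraries (first group over second, linear axis), with bars for the standard error and filled points for an adjusted p under 0.05. Lgals1 and Lgals3 lie far to the right in effector-type over naive-type cells, at 4.61 and 7.06 in CD8 T, and on opposite sides in NK over T cells, at 1.78 and -1.78.

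The genes most like each member were ranked by the Pearson correlation of log2 CPM (counts scaled to the library size, with a prior count of 2) over profiles that share libraries, which is a description. Over the 20 profiles of 5 gates by 4 libraries and 4286 genes, Lgals1 was most like Ctsd (0.93), Spn (0.89), Klrk1 (0.88), Selplg (0.88) and Myl12a (0.86), and Lgals3 most like Ifitm2 (0.91), Lsp1 (0.91), Smdt1 (0.90), Ifitm3 (0.89) and Taldo1 (0.89). Between Lgals1 and Lgals3 the value was -0.04 there. Over the 15 profiles of naive-type and effector-type T cells it was 0.90, with Lgals3 at place 26 among 2135 genes for Lgals1. In those profiles Lgals1 was most like Gng2 (0.96), S100a4, Prr13, Nkg7 and Ccr2 (each 0.95), and Lgals3 most like Id2, Nkg7, Anxa6 (each 0.97), S100a4 (0.97) and Klrg1 (0.96), of which S100a4 and Nkg7 had set the profiles. For Lgals9 the likeness in T cells was led by Higd2a (0.85), with Rasal3, Tpm3 and Actn4 among the 5 most like genes. Over the gates, Lgals9 was led by Taf13, Lgals8 by Cox10 and Lgals3bp by Tmem50a, at 0.92, 0.93 and 0.91, from 340 to 895 UMIs in all, where few UMIs set most profiles.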

How the data were processed

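Blood cells of 4 groups, 1 library each, were profiled with 10x Genomics 3′ chemistry. The deposited values are UMI counts per gene and cell, made by the authors with Cell Ranger against mm10, and Seurat 2 is named in the submitters' processing notes. From these counts, cells with at least 200 genes were kept, 13 mitochondrial, 102 ribosomal protein and 10 hemoglobin genes did not enter the totals, and levels were given per 10000 UMIs with exact Poisson intervals (95%) and shares with exact Clopper-Pearson intervals. A count of 0 was read as up to 3 UMIs. Ratios between libraries have exact conditional binomial intervals. Gates rest on raw UMIs of marker genes. T and NK cells with at least 2 B or 3 monocyte markers were left out as possible doublets. So were T cells with both Cd8 and Cd4 UMIs, and monocytes with at least 2 B or 3 neutrophil markers. NK and neutrophil markers left out no T cell, and the B gate was screened for Cd3 UMIs only. A few gene names, 1 of them a naive marker, are not reported here. Scrublet (scanpy 1.11.5) called 5 to 10 cells per library and served as an alternative.

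For tests, UMIs were summed per library and subset with at least 10 cells, and fitted with edgeR 4.0.16 (R 4.3.3; TMM, filterByExpr, quasi-likelihood test, library as a block, Benjamini-Hochberg over all genes tested). The scripts were tested on simulated data. Alternatives were DESeq2 1.42.0, its size factors, no filter, no block, each library left out, all genes kept, an upper limit of 2900 genes, gates on log1p values above 1, 3 effector markers, thinning to 750 UMIs, and, chosen after seeing the data, removal of cells with at least 3 Csta1 UMIs. Treated libraries were set against the untreated one only for genes with at least 50 UMIs in both together when the share at a ratio of 2 or more was counted. Members and gene lists were chosen with earlier results of these data known. Named genes were the members, called genes of the counter-receptor and glycan enzyme lists, and, in the fits by Lgals1 or Lgals3, the 5 largest changes in each direction among called genes that moved the same way in every library. Each library is 1 sample, and the fits used 2 to 4 libraries of different treatments. With so few libraries the p-values rest largely on dispersion estimates shared over genes. They do not measure the spread between mice of a treatment.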

Additional observations from a re-analysis of the deposited data

Results flagged for a closer look

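Some within-library ratios pointed in opposite directions in different libraries, and since each treatment is 1 library these differences were not tested. Lgals1 in CD8 T over CD4 T cells was 2.58 with anti-PD-L1 and 0.67 with anti-OX40/CpG. Lgals3 in CD8 T over CD4 T cells was 4.08 with anti-PD-L1 and 0.22 without treatment, where 1 Csta1 cell held most of the CD4 T UMIs. In effector-type CD8 T over effector-type CD4 T cells, Lgals1 was 2.003 with anti-PD-L1 and 0.73 with anti-OX40/CpG, and Lgals3 was 6.53 and 0.56. Lgals1 in interferon-type over other T cells was 2.13 with anti-OX40/CpG and 0.26 without treatment, the latter from 5 UMIs.

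Cells outside the gates also held much of the Lgals3. The 17 Csta1 cells there were at 29.9 UMIs per 10000, 131 cells with a Cd3 UMI and B or monocyte markers at 19.8, 230 cells with a Cd3 UMI and both Cd8 and Cd4 UMIs at 6.66, and 42 cells with at least 3 neutrophil markers at 9.22.

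Of the other galectin genes, Lgals4 had 34 UMIs over all deposited cells, Lgals7 had 56, with 24 kept cells positive, and Lgalsl had 51.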

How the results depend on the processing

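Values recomputed under an alternative kept their direction and side of the threshold, or moved by less than the counting error, in 485 cases, lost a call in 34, changed direction in 28, moved in 21 and gained a call in 1. Causes were not tested. No paired analysis was possible because each group holds 1 library, so no replicate numbers are shared in pairs. Below, values are log2 fold changes unless named as ratios, and ranges are over leaving out each library.

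For CD8 T against CD4 T, Lgals1 was -0.076 without the library block and -0.032 after thinning (range -0.29 to 0.36), Lgals3 was 0.082 at 200 to 2900 genes, 0.20 with log1p gates and 0.052 without Csta1 cells (-0.62 to 0.20), Lgals8 ranged from -0.12 to 0.32, and Lgals3bp was 0.12 after thinning (-0.50 to 0.047). In NK cells Lgals3 was -1.75 in DESeq2, -1.91 without the block and -1.12 after thinning (-2.11 to -1.47), and Lgals9 ranged from -0.42 to 0.96. In B cells Lgals3 was -0.84 in DESeq2, -0.77 without the block, -0.80 at 200 to 2900 genes, -0.79 with log1p gates, -0.72 after thinning and -0.67 without Csta1 cells (-1.63 to -0.35), and Lgals9, near 0 in the reported fit, was -0.36 without the filter, -0.0077 with all genes, -0.016 at 200 to 2900 genes, -0.10 with log1p gates and -0.0018 without Csta1 cells (-1.05 to 0.35). In monocytes Lgals1 was -0.65 in DESeq2, -0.58 without the block, -0.60 at 200 to 2900 genes and -0.81 after thinning (-0.89 to -0.52).

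In effector-type against naive-type cells, Lgals1 and Lgals3 were called under every alternative that gave a value. Lgals9 was 0.053 without the filter in CD8 T, and in CD4 T lost its call without the filter (-0.90), in DESeq2 (-1.03), without the block (-0.95), with all genes (-0.93), at 200 to 2900 genes (-0.85) and with 3 effector markers (-0.90; range -1.77 to -0.22). For interferon-type T cells, Lgals3bp was 0.92 after thinning and 1 without high Scrublet scores (1.11 to 1.44), Lgals1 ranged from -0.075 to 0.38 and Lgals8 from -0.33 to 0.55. For Lgals1+ against Lgals1- cells, Lgals3 in CD8 T was 2.82 in DESeq2 and 1.96 without the block, Lgals8 ranged from -0.34 to 0.0032, and Lgals3 in CD4 T was called without the filter (1.76). It gave no value after thinning, with log1p gates or without Csta1 cells, since it did not pass the filter. For Lgals3+ against Lgals3- effector-type cells, Lgals3bp in CD8 T ranged from -0.042 to 0.78, and Lgals1 in CD4 T was 0.77 in DESeq2, 0.76 without the block, 0.65 at 200 to 2900 genes and 0.66 with 3 effector markers. Leaving out a library could not be fitted there, with 2 libraries.

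Log1p gates left 1 Lgals3 UMI in untreated CD8 T cells. As ratios to the untreated library, they gave in CD8 T cells, for Lgals1, 4.31 with anti-PD-L1, 3.10 with anti-OX40/CpG and 5.70 with PDOX, and for Lgals3 132.9, 61.3 and 141.3. In CD4 T cells they gave 0.917, 2.83 and 4.80 for Lgals1, and 1.09, 7.87 and 12.8 for Lgals3. After thinning, Lgals1 with anti-PD-L1 was 2.097 in CD8 T cells and 0.978 in CD4 T cells, Lgals1 with anti-OX40/CpG 2.82 in CD4 T cells, Lgals3 with anti-PD-L1 3.90 in CD8 T cells and 0.856 in CD4 T cells, and Lgals3 in CD4 T cells 3.34 with anti-OX40/CpG and 7.33 with PDOX. At 200 to 2900 genes Lgals1 with anti-PD-L1 was 2.30 in CD8 T cells and Lgals3 with anti-OX40/CpG 0.872 in CD4 T cells, and with all genes Lgals1 with PDOX was 5.24 in CD8 T cells. Without Csta1 cells Lgals3 in CD4 T cells was 1.24, 8.93 and 14.65.

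Over all alternatives the genes called numbered 98 to 523 for CD8 T against CD4 T (296 in the report), 139 to 490 in NK cells (345), 193 to 957 in B cells (575), 281 to 1847 in monocytes (926), 188 to 676 for effector-type CD8 T (531), 140 to 568 for effector-type CD4 T (470), 24 to 340 for interferon-type T (138), 163 to 841 for Lgals1+ CD8 T (573), 8 to 270 for Lgals1+ CD4 T (108), 10 to 212 for Lgals3+ CD8 T (96) and 0 to 33 for Lgals3+ CD4 T (31), the 0 from edgeR without the block, where 102 genes had an unadjusted p under 0.05. NK, B and monocyte values are limited by their 5 to 57 cells per gate and library.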

Other observations

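The 2088 cells outside the gates carried 36.0% of the Lgals1 UMIs and 50.0% of the Lgals3 UMIs of all kept cells. The largest group, 1556 cells with a Cd3 UMI but no UMI of Cd8a, Cd8b1 or Cd4, held Lgals1 at 6.29 UMIs per 10000 in the untreated library, 7.83 with anti-PD-L1, 12.6 with anti-OX40/CpG and 22.9 with PDOX, the same order as in the CD4 T gate. Lgals3 in these cells was at 0.24, 0.45, 0.59 and 3.90. Their median was 1337 UMIs per cell, below the 1664 of the CD8 T gate. In the 131 cells with a Cd3 UMI and B or monocyte markers, the median was 2966 UMIs, and Lgals1 was at 24.1 and Lgals3 at 19.8 UMIs per 10000. They held 21.1% of all Lgals3 UMIs, and their share of the Lgals3 UMIs was 54.8% in the untreated library and 7.92% with PDOX. In the 42 cells with neutrophil markers Lgals3 was at 9.22 and Lgals1 had 1 UMI.

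Lgals2 and Lgals12 were listed at 0 UMIs in all 4 libraries. Lgals7 was detected in 24 kept cells, and of its 56 UMIs 31 came from the anti-OX40/CpG library and 20 from the PDOX library.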
